A study of Mus musculus with 71 samples.

Results

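The collagen chain genes are the 44 genes of the mouse genome whose symbol has the form Col, a number, the letter a and a number. All 44 were found among the 55416 gene identifiers of the deposited table. They were divided by textbook class into 11 fibrillar chains, 8 basement membrane chains and 25 other chains. The brains came from C57BL/6J mice that were burned, had skin excised or were sham-treated. Burning gave a full-thickness contact injury on the flank, made with a brass rod 19 mm across held on the skin for 10 s at over 90 °C. The excision was a full-thickness wound on the back over a template 12 mm across, and sham mice were shaved only. All groups had isoflurane, buprenorphine at 0.1 mg/kg and drinking water with paracetamol at 1 mg/mL for 5 days. The injury sites therefore also differed between burn and the other groups. For age, sex and collection time no value is given in the sources used here.

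There were 10 burn, 10 excision and 9 sham libraries of hippocampus, 10, 10 and 8 of frontal cortex, and 5, 4 and 5 of piriform cortex. Hippocampus and frontal cortex were each collected in batches 1 and 2, and the piriform cortex only in batch 3. Libraries held 6.65 to 87.8 M counts (M, mega; median 57.0 M), and the 4 libraries under 10 M were all from hippocampus batch 1. In 4 libraries the title named another treatment than the treatment field, which was followed here. They are frontal cortex burn replicates 7 and 8, frontal cortex excision replicate 7 and piriform cortex sham replicate 2. The labels do not say whether libraries came from separate animals, so p-values measure only the spread between libraries. Summed CPM (counts of a gene per M counts of the library) of hippocampal neuron markers ran from 522 to 817 in the hippocampus and from 222 to 388 in the frontal cortex. Cortical layer markers ran from 254 to 438 and from 392 to 765. Frontal cortex libraries also held striatal markers at 198 to 1841 CPM, and titles of the piriform libraries name the frontal cortex. Piriform cortex sham replicate 1 stood apart from its region. It held hippocampal neuron markers at 652.5 CPM, against 288 to 377 CPM in the other piriform libraries, and choroid plexus markers at 222.2 CPM, against 4.46 to 60.3 CPM. It was also the highest piriform library for Col1a1, Col1a2, Col3a1, Col4a3, Col4a4, Col6a4, Col8a2 and Col9a3. Without it 0 chains were called in the 3 piriform comparisons, as with it.

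Collagens are triple-helical proteins of the extracellular matrix, built from 3 chains that may be identical or products of different genes. Fibrillar chains such as Col1a1, Col1a2 and Col3a1 form the tensile fibrils of connective tissue, and in the brain these belong mainly to the meninges and the walls of large vessels. Basement membrane chains include the type IV chains, of which Col4a1 and Col4a2 assemble together under the endothelium of nearly all vessels. Col15a1 and Col18a1 are proteoglycan-like chains at the border of basement membranes. The remaining chains form beaded filaments (type VI), sit on fibril surfaces (types IX, XII, XIV and XVI among them), build short networks (types VIII and X) or span the cell membrane (types XIII, XVII, XXIII and XXV). In bulk tissue, fewer cells of a type and less RNA per cell cannot be told apart.

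The windows around the start sites of 5 chains are shown because the results below turn on these chains. They are the type IV pair Col4a1 and Col4a2, the fibrillar chain Col1a2, the region-dependent Col6a1 and Col8a1, whose hippocampal levels split with choroid plexus markers. Each is 300 bases from RefSeq (GRCm38.p6), from 250 before to 50 after the start, 5′ to 3′ on the strand of the gene. Capitals mark CCAAT and GGGCGG on either strand, so that ATTGG and CCGCCC are the same motifs read on the other strand.
Col4a1 (chr8:11312777-11313076, minus strand): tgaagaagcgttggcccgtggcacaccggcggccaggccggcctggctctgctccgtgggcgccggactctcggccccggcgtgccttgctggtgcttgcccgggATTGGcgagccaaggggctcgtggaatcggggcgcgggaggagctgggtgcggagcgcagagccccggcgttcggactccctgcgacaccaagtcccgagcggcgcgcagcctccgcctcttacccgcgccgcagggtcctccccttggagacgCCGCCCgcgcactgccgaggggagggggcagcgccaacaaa
Col4a2 (chr8:11312555-11312854, plus strand): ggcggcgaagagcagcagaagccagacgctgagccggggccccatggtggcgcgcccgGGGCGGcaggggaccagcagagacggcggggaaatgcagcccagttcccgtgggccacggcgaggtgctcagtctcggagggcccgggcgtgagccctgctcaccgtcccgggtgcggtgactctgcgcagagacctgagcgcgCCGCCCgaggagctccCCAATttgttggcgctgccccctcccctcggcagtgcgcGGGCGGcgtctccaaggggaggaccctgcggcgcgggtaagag
Col1a2 (chr6:4505368-4505667, plus strand): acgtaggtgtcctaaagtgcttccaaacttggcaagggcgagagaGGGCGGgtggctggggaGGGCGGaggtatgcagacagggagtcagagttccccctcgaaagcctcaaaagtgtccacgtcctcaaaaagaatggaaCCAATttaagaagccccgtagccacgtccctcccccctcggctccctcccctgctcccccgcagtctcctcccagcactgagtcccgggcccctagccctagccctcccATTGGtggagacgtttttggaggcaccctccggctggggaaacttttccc
Col6a1 (chr10:76725995-76726294, minus strand): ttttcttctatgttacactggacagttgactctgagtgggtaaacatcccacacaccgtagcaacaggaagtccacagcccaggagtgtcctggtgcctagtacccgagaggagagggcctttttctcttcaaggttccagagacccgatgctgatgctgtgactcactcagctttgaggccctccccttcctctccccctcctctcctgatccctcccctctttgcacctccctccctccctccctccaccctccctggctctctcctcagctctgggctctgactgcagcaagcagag
Col8a1 (chr16:57754688-57754987, minus strand): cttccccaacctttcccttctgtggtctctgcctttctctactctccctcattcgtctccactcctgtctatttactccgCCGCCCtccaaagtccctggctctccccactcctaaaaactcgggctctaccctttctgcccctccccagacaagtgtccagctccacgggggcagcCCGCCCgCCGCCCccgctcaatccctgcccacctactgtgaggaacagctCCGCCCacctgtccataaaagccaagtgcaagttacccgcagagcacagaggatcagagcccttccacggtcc

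The Col4a1 and Col4a2 windows lie head to head and share 78 bases. Both are rich in G and C, at 74.0% and 73.67%. The Col4a2 window held 3 GGGCGG matches and the Col4a1 window 1, with 1 CCAAT match in each. The GGGCGG match of Col4a1 lies in the shared bases and is 1 of the 3 of Col4a2, read on the other strand. The Col1a2 window held 2 of each motif, and the Col8a1 window held 4 GGGCGG matches and no CCAAT. Neither these motifs nor TATAAA occurred in the Col6a1 window. RefSeq windows were available for 35 of the 44 chains, 38 windows in all. CCAAT was present in 13 of the 38 (34.21%) against 37.39% of all 32817 windows in the table, and TATAAA in 5 (13.16%) against 13.62%. GGGCGG was present in 23 (60.53%) against 35.63%. Median GC content was 59.84% over chain windows and 52.67% over all windows, which bears on how often a motif made of G and C is found. The matches are a description of the letters and not of bound factors. Col1a1, Col2a1, Col4a3, Col5a2, Col9a3, Col12a1, Col14a1, Col22a1 and Col26a1 had no window in the table.

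Levels were set against each other as CPM per kilobase (kb) of exon. Summed over all 44 chains, the median library held 51.7 CPM per kb in the hippocampus, 69.5 in the frontal cortex and 74.0 in the piriform cortex. Chains outside the fibrillar and basement membrane classes made up most of this sum, with a median of 56.2%, 65.9% and 57.0% in the 3 regions. Basement membrane chains gave 25.3%, 19.0% and 24.5%, and fibrillar chains 19.0%, 15.4% and 19.3%. The piriform values come from another batch and were not tested against the other regions.

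Col6a1, a chain of the beaded filaments of type VI collagen, was first in the frontal cortex at a median of 22.7 CPM per kb and in the piriform cortex at 19.1. In the hippocampus it stood at 5.67 CPM per kb, just under Col4a2. The type IV chain Col4a2 had medians of 6.53, 6.79 and 10.7 CPM per kb in hippocampus, frontal cortex and piriform cortex. Its partner Col4a1 had 3.78, 4.09 and 5.48 CPM per kb. Both type IV chains had overlapping ranges in hippocampus and frontal cortex, from 15.9 to 71.7 and from 18.1 to 85.1 CPM for Col4a2. Col15a1 and Col18a1 were much lower, at 0.549 and 0.666 CPM per kb in the hippocampus, where Col4a5 stood at 0.388. The lowest of the class, Col4a3 and Col4a4, stood at 0.029 and 0.066 CPM per kb.

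Among fibrillar chains the highest level belonged to Col11a2, a minor fibril chain best known from cartilage, and not to the type I chains. Its median was 3.67, 2.97 and 4.53 CPM per kb in hippocampus, frontal cortex and piriform cortex. Col5a1, which takes part in starting fibril assembly, followed at 1.49, 1.43 and 3.73 CPM per kb. The major connective tissue chains were lower: Col1a1 stood at 0.945, 1.19 and 0.842 CPM per kb. Col3a1, the chain of reticular fibres, was at 0.124, 0.167 and 0.122. Col24a1 showed the widest span of this class between regions, at 0.0760, 0.494 and 1.90 CPM per kb. Of the other class, Col9a3 (3.15 CPM per kb) and Col25a1 (2.47), a transmembrane chain of neurons, stood next to Col6a1 in the hippocampus. In the frontal and piriform cortex Col16a1 came after Col6a1, at 2.89 and 4.39 CPM per kb.

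**Figure D1:**
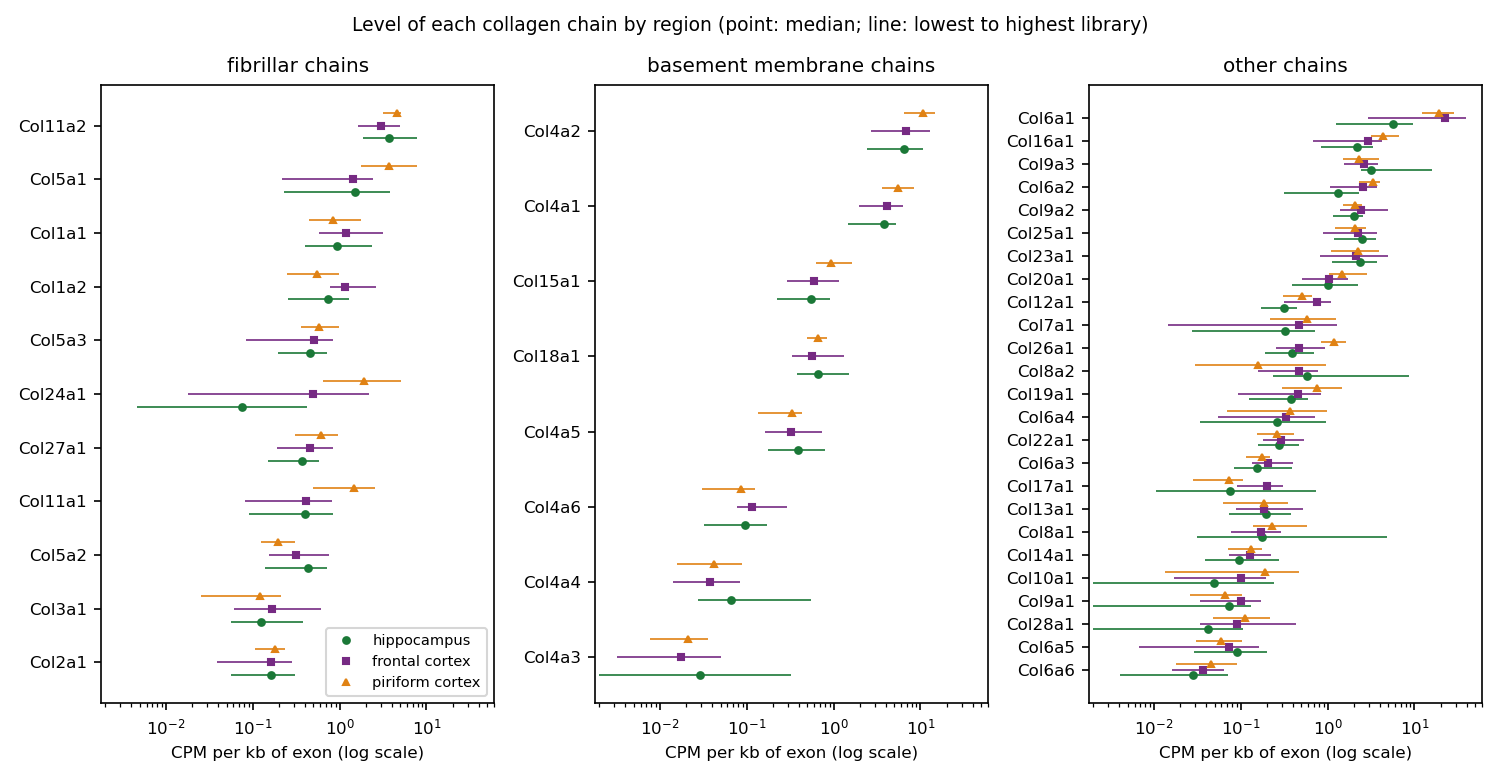
Level of each chain as CPM per kb of exon on a log scale, in panels by class, with the median as a point and the lowest to highest library as a line for each region. Col4a2 and Col4a1 lead the basement membrane class in all 3 regions, Col6a1 leads the other class at medians of 5.67, 22.7 and 19.1, and Col8a1 and Col8a2 have long upper ranges in the hippocampus.

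Hippocampus and frontal cortex were compared over both batches and all treatments, to ask which chains differed by region. Of the 44 chains, 25 passed an adjusted p of 0.05 (edgeR quasi-likelihood test, Benjamini-Hochberg over all genes), 7 higher and 18 lower in the hippocampus. Over all genes tested 61.4% passed, 28.3% higher and 33.1% lower, so that the share of chains is close to the background. Fibrillar chains gave 1 higher and 5 lower of 11, basement membrane chains 2 higher and 1 lower of 8, and other chains 4 higher and 12 lower of 25. The median log2 difference of the chains was -0.20, against -0.03 over all genes. In sham libraries alone, 5 chains were higher and 8 lower, where 41.0% of genes passed.

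The chains lower in the hippocampus included a fibrillar chain and the 2 abundant type VI chains. Col24a1, a fibrillar chain, ran from 0.0357 to 3.25 CPM in the hippocampus (median 0.579) and from 0.137 to 16.7 CPM in the frontal cortex (median 3.76). The ranges overlapped, and the log2 difference was -2.59 (SE 0.32, adjusted p = 3.7e-10). Col6a1 ran from 5.50 to 42.3 CPM (median 24.8) against 13.0 to 169.7 CPM (median 99.2). Its log2 difference was -2.0 (SE 0.18, adjusted p = 1.1e-14), and the low end of the frontal cortex range came from batch 1. Col6a2, which joins Col6a1 in the type VI trimer, had medians of 11.1 and 21.1 CPM and a log2 difference of -1.01 (SE 0.11, adjusted p = 8.9e-12). Col12a1, which coats fibrils, ran from 2.59 to 6.82 CPM against 4.85 to 16.8 CPM, with a log2 difference of -1.29 (SE 0.10, adjusted p = 2.3e-18). This was the smallest p-value of the 44 chains. Col28a1 stood near the floor in both regions, with medians of 0.206 and 0.446 CPM and a log2 difference of -1.32 (SE 0.22).

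The type I and III chains were also lower in the hippocampus, by less. Col1a2 ran from 3.14 to 16.0 CPM (median 9.08) against 9.55 to 32.4 CPM (median 14.5), with a log2 difference of -0.86 (SE 0.14, adjusted p = 2e-07). Col1a1 differed by -0.45 (SE 0.15, adjusted p = 0.0089) and Col3a1 by -0.48 (SE 0.19, adjusted p = 0.028). The meningeal fibroblast marker sum ran from 89.2 to 298 CPM in the hippocampus and from 111 to 379 CPM in the frontal cortex, with medians of 180 and 170. Its members went in opposite directions, so that near-equal sums do not show equal meningeal content. Dcn had a median of 32.9 CPM in the hippocampus against 6.16 in the frontal cortex. Medians of Islr (13.5 against 25.2 CPM), Fmod (7.07 against 12.3), Slc6a13 (5.49 against 8.82) and Dpp4 (1.14 against 2.93) were lower in the hippocampus. The part of meningeal content in these differences was not tested by itself. Col4a1 (log2 difference -0.19) and Col4a2 (-0.08) did not pass the test, nor did Col18a1 (0.25, SE 0.12, adjusted p = 0.084).

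The 5 largest differences in the other direction belonged to Col8a1 (2.10, SE 0.40), Col8a2 (1.90, SE 0.32), Col4a3 (1.77, SE 0.34), Col4a4 (1.64, SE 0.27) and Col9a3 (1.05, SE 0.18), with adjusted p from 4.1e-07 to 8.5e-06. Col8a1 and Col8a2 form the type VIII network, Col4a3 and Col4a4 a type IV network known from kidney, and Col9a3 a chain on fibril surfaces. These differences came from some hippocampal libraries only. The choroid plexus marker sum split the 29 hippocampal libraries into 16 at 28.2 to 264.5 CPM and 13 at 930.6 to 7031 CPM. Frontal cortex libraries held 4.72 to 37.0 CPM. Col8a1 ran from 0.247 to 1.36 CPM (median 0.71) in the 16 libraries and from 5.76 to 37.5 CPM (median 11.7) in the 13, with no overlap. In the frontal cortex it ran from 0.598 to 2.28 CPM (median 1.34), above the median of the 16. Col8a2 likewise ran from 1.05 to 3.55 CPM against 7.48 to 39.2 CPM, and Col9a3 from 9.25 to 14.6 CPM against 17.6 to 62.1 CPM. Col4a4 ran from 0.294 to 0.881 CPM against 0.941 to 5.85 CPM, while Col4a3 overlapped, at 0 to 0.369 CPM against 0.135 to 3.18 CPM.

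A fit with the choroid plexus sum as a covariate, chosen after seeing the data, turned the direction of all 5 of these chains and gave 1 chain higher and 23 lower, where 48.5% of all genes were called. Col8a1 then stood at -2.21 (adjusted p = 1.1e-08), Col8a2 at -1.39 (1.3e-08), Col4a3 at -1.0 (0.02), Col4a4 at -0.61 (0.036) and Col9a3 at -0.55 (2.2e-06). The sums of the regions overlap only between 28.2 and 37.0 CPM, so that this fit carries the relation far outside the frontal cortex range. Col6a1 (-1.86), Col24a1 (-2.55), Col12a1 (-1.17) and Col1a2 (-1.27) remained past the threshold in the same direction. The high libraries were 6 of 10 burn, 4 of 10 excision and 3 of 9 sham, present in every treatment but most frequent in burn.

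**Figure D2:**
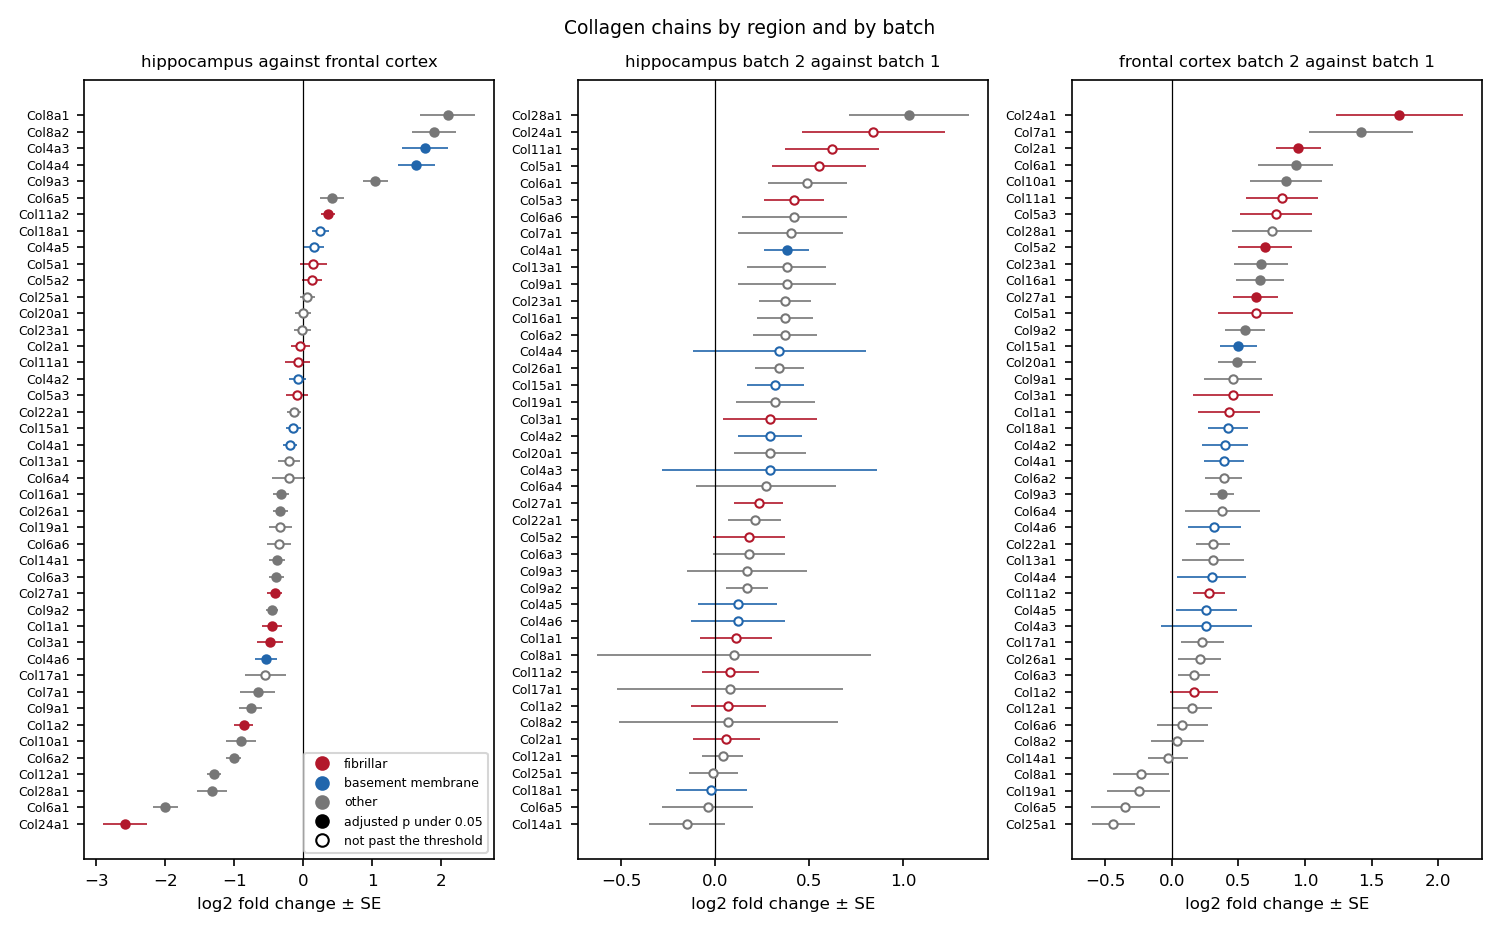
Log2 fold change with its SE for each chain between regions and between batches, coloured by class, with filled points past an adjusted p of 0.05. Region differences run from -2.59 (Col24a1) to 2.10 (Col8a1), while in the frontal cortex 39 of 44 chains lie above 0 in batch 2 and 13 pass the test.

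Burn was compared with sham in the hippocampus to ask whether the chains changed after the injury. None of the 43 chains tested passed (Col10a1 was below the filter on low counts), where 1.03% of all genes did, 0.291% higher and 0.741% lower. At an unadjusted p under 0.05 there were 13 chains, against 17.7% of all genes. All 11 fibrillar chains had a log2 difference below 0, from -0.69 to -0.20 with a median of -0.56, against 0.01 over all genes. Basement membrane chains were divided, with 4 below and 4 above 0 and a median of -0.02, and the other chains had a median of -0.09. Col4a1 stood at -0.52 (SE 0.15, adjusted p = 0.083), Col4a2 at -0.61 (SE 0.20, adjusted p = 0.13) and Col2a1 at -0.69 (SE 0.22, adjusted p = 0.10). Col7a1 had the smallest p of the other chains, at -1.06 (SE 0.34, adjusted p = 0.11). The type I and III chains Col1a1, Col1a2 and Col3a1 stood at -0.67, -0.20 and -0.46 (adjusted p = 0.13, 0.72 and 0.43). Col18a1 stood at 0.03 and Col9a3 at 0.63 (SE 0.39, adjusted p = 0.41). Libraries high in choroid plexus markers, where Col9a3 was higher, were 6 of 10 burn and 3 of 9 sham. Apart from a covariate fit given below, the part of this imbalance in the differences was not tested. DESeq2 called 2 chains lower, Col4a1 at -0.53 (adjusted p = 0.034) and Col2a1 at -0.71 (adjusted p = 0.045), where it called 3.21% of all genes. Without sham replicate 1 the edgeR test called 2 chains lower, and without burn replicate 8 it called 6. With the choroid plexus sum as a covariate 0 chains were called, where 0.307% of genes were. The main fit also called 0, so this count does not show the part of the imbalance.

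The 2 hippocampal batches were also fitted apart. In batch 1 alone 10 of 40 chains were lower after burn, with 7.09% of all genes called, while in batch 2 alone 0 of 44 were called, with 0.156% of genes. In batch 1, Col4a1 measured 18.4, 18.5, 10.9, 12.4 and 16.4 CPM in the burn libraries. Excision libraries had 31.3, 19.7, 31.3, 29.8 and 25.2 CPM, and sham libraries 16.2, 32.3, 25.7 and 39.2 CPM. Burn lay below every excision library, and only sham replicate 1, at 16.2, fell among the burn values, for a log2 difference from sham of -0.97 (SE 0.22, adjusted p = 0.020). Col11a2 measured 20.7, 16.8, 12.9, 19.4 and 15.6 CPM after burn and 21.6, 36.4, 28.8 and 53.9 CPM after sham. No burn value reached the lowest sham value, and the log2 difference was -1.11 (SE 0.21, adjusted p = 0.012). The other 8 chains called were Col5a3, Col7a1, Col11a1, Col16a1, Col20a1, Col27a1, Col4a2 and Col6a4, from -2.41 (Col7a1) to -0.97 (Col27a1). They include fibrillar, type IV and fibril-associated chains, but neither Col1a2 (-0.31) nor Col3a1 (-0.33).

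In batch 2 the groups overlapped. Col4a1 ran from 22.4 to 37.3 CPM after burn (median 25.9), from 25.9 to 35.2 after excision (28.3) and from 27.9 to 36.3 after sham (29.9). Its log2 difference between burn and sham was -0.19 (SE 0.14, adjusted p = 0.85). The difference of the burn effect between batches was tested itself, and 0 of 43 chains passed in edgeR, with 0.046% of all genes called. At an unadjusted p under 0.05 there were 14 chains, against 16.2% of all genes, and Col22a1 (1.19, SE 0.27, adjusted p = 0.080) and Col11a1 (1.97, SE 0.50, adjusted p = 0.086) came nearest. The median of this difference was 1.10 for fibrillar chains and 0.58 for all chains, against 0.00 for all genes.

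A library property moved with these values. GENCODE holds a provisional class of gene models, TEC, which rests on expressed sequence tags, and 3214 of them are in the table. Their share of counts in hippocampus batch 1 ran from 0.0436% to 0.0560% in burn (median 0.0484%) and from 0.0510% to 0.0858% in sham (median 0.0704%). The burn and sham ranges overlapped at their ends, and excision libraries ran from 0.0466% to 0.0712% (median 0.0620%). In batch 2 the medians were 0.0699%, 0.0740% and 0.0682% in burn, excision and sham, and the ranges overlapped. With this share as a covariate, chosen after seeing the data, 0 chains were called, where 0.153% of all genes were, the median over chains was 0.00 and Col4a1 stood at -0.18 (SE 0.08, adjusted p = 0.48). What sets this share was not tested.

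Excision against sham gave 0 of 43 chains in the hippocampus (0.0% of all genes), in edgeR as in DESeq2, and 0 chains at an unadjusted p under 0.05, against 3.71% of genes. The smallest p belonged to Col22a1, a chain of tissue junctions, at -0.31 (adjusted p = 0.85). Col1a1, Col1a2, Col3a1, Col4a1, Col4a2, Col18a1 and Col9a3 lay between -0.29 (Col1a1, SE 0.23) and 0.02 (Col18a1). Burn against excision, which shares the burn libraries with the first comparison, gave 0 of 43 chains (0.209% of all genes), 9 chains at an unadjusted p under 0.05 (14.3% of genes) and 0 in DESeq2. Col4a1 stood at -0.48 (SE 0.15, adjusted p = 0.15), and the 11 fibrillar chains were all below 0, with a median of -0.42. Col1a2 stood at -0.02 (SE 0.24) and Col4a2 at -0.48 (SE 0.20, adjusted p = 0.28). Within batch 1, 1 chain was called lower, where 1.05% of genes were called.

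In the frontal cortex, burn against sham gave 0 of 44 chains (0.28% of all genes), 2 chains at an unadjusted p under 0.05 (13.0% of genes) and 0 in DESeq2. Col22a1 stood at 0.46 (SE 0.16, adjusted p = 0.19) and Col9a3 at -0.30 (SE 0.11, adjusted p = 0.21). Col4a1 and Col4a2 stood at -0.27 and -0.25 (adjusted p = 0.58 and 0.65), Col18a1 at -0.37 (adjusted p = 0.42) and Col1a2 at -0.09 (adjusted p = 0.91). Fibrillar chains were below 0 in 11 of 11 cases, with a median of -0.23, and against excision, with the same burn libraries, their median was -0.42. In batch 1 alone, where 6.5% of genes were called, Col19a1 was higher (0.95, adjusted p = 0.044) and Col9a3 lower (-0.52, adjusted p = 0.045). Batch 2 alone gave 0 chains, with the burn libraries whose titles name sham counted as burn. Excision against sham gave 0 chains (0.0% of all genes), 2 at an unadjusted p under 0.05 (4.78% of genes) and 0 in DESeq2, with all 11 fibrillar chains above 0 at a median of 0.15.

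Burn against excision in the frontal cortex gave 0 of 44 chains (0.209% of all genes, 0.0807% higher and 0.128% lower), 9 chains at an unadjusted p under 0.05 (11.6% of genes) and 0 in DESeq2. The 3 smallest p-values were those of Col2a1 (-0.58, SE 0.20, adjusted p = 0.26), Col16a1 (-0.58, adjusted p = 0.28) and Col4a2 (-0.51, adjusted p = 0.32). In batch 1 alone 7 chains were lower after burn, where 6.45% of genes were called. Col6a1 in that batch measured 47.8, 13.0, 28.2, 20.7 and 70.8 CPM after burn and 135, 153, 98.9, 170 and 63.5 CPM after excision. Sham libraries had 40.4, 99.5, 68.0, 95.2 and 17.6 CPM, spanning most of the burn range. Burn and excision overlapped in 1 library each, and the log2 difference was -1.79 (SE 0.47, adjusted p = 0.035). The other 6 chains called were Col5a3 (-1.60), Col16a1 (-1.18), Col2a1 (-1.10), Col4a2 (-1.04), Col6a2 (-0.90) and Col11a2 (-0.76). In batch 2 alone 0 chains were called, and Col6a1 stood at 0.26 (SE 0.17). All frontal cortex libraries whose titles name another treatment than the treatment field lie in batch 2, in its burn and excision groups. The fit of batch 2 alone and the test between batches given below followed the treatment field. The part of these labels in the contrast between batches was not tested. The TEC share in batch 1 ran from 0.0550% to 0.0724% in burn, from 0.0623% to 0.0801% in excision and from 0.0494% to 0.0702% in sham. With this share as a covariate over both batches, chosen after seeing the data, 0.304% of all genes were called for burn against excision. For burn against sham 0.726% were. Both are above the 0.209% and 0.28% called without it. The test of the burn effect between batches gave 0 of 44 chains in edgeR (0.0% of all genes) and 4 at an unadjusted p under 0.05 (19.4% of genes), with Col17a1 nearest at 1.17 (adjusted p = 0.16). That of the burn effect between hippocampus and frontal cortex also gave 0 of 44 in edgeR (0.0% of all genes), with 2 chains at an unadjusted p under 0.05 (8.55% of genes) and 0 in DESeq2. Col22a1 came nearest, at -0.61 (SE 0.24, adjusted p = 0.46).

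The piriform cortex gave 0 of 44 chains in each of the 3 comparisons in edgeR (0.0% of all genes in each). At an unadjusted p under 0.05 there were 0 chains for burn against sham, 4 for excision against sham and 6 for burn against excision, where 4.27%, 5.25% and 7.89% of genes were. Fibrillar chains lay above 0 in 10 of 11 cases for burn against sham, with a median of 0.15. Burn against excision also had 10 of 11 above 0, at a median of 0.38. For excision against sham 9 of 11 lay below 0, at a median of -0.2. Col6a4, a type VI chain, stood apart. It measured 0.690, 0.596, 1.71 and 0.984 CPM after excision, 6.88, 4.09, 7.85, 2.79 and 1.85 CPM after burn and 8.38, 6.29, 2.63, 3.59 and 4.5 CPM after sham. All 4 excision libraries lay below every other library, and the highest value was that of sham replicate 1. The log2 difference of excision from sham was -2.36 (SE 0.46, adjusted p = 0.91), and that of burn from excision 2.24 (SE 0.46, adjusted p = 0.29). Without sham replicate 1 these were -2.1 (SE 0.45, adjusted p = 0.86) and 2.24 (SE 0.43, adjusted p = 0.21) in edgeR. DESeq2 called it in both, at -2.35 (adjusted p = 0.017, with 0.00952% of genes called) and 2.23 (adjusted p = 0.0074, with 0.281%). Exons of Col6a4 overlap a TEC model and an antisense gene on the other strand over 127 and 162 bases, and the strand setting of the counting is not stated. Col4a1 measured 37.5, 54.2, 63.0, 57.9 and 49.0 CPM after burn, 26.7, 35.5, 46.6 and 39.2 after excision and 33.4, 42.6, 26.7, 39.0 and 61.0 after sham, with overlapping groups. Col4a2 stood at 0.52 for burn against excision (SE 0.19, adjusted p = 0.60), and Col1a2 between -0.04 and 0.16 in the 3 comparisons.

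**Figure D3:**
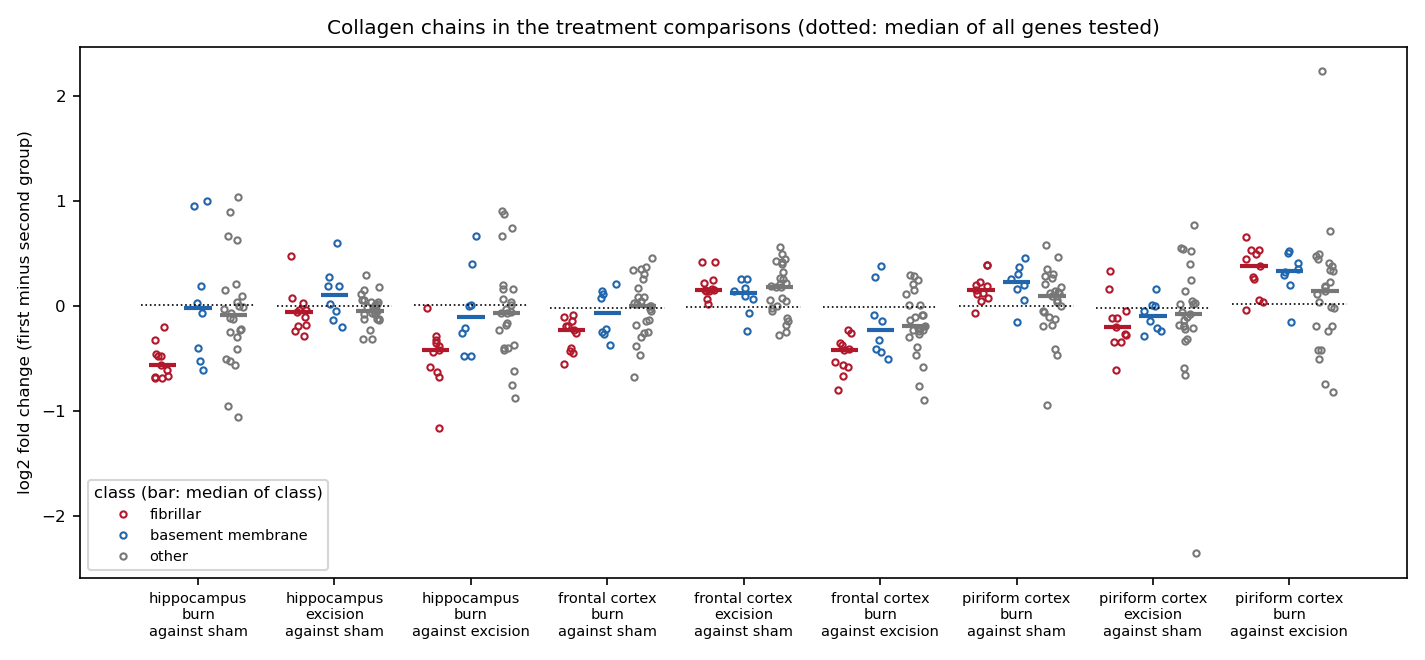
Log2 fold change of each chain tested in the 9 treatment comparisons, by class, with the class median as a bar and the median of all genes tested as a dotted line. For burn against sham, fibrillar chains lie below 0 in hippocampus and frontal cortex (medians -0.56 and -0.23). In the piriform cortex 10 of 11 lie above 0 (median 0.15). No chain passes the edgeR test, and Col6a4 in the piriform cortex is the outlying point at -2.36 and 2.24.

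Batches were compared with treatment as a term, and animals, dissection and sequencing cannot be told apart there. In the hippocampus 2 chains were higher in batch 2, Col28a1 (1.03, SE 0.32, adjusted p = 0.025) and Col4a1 (0.38, SE 0.12, adjusted p = 0.035), and 0 were lower, where 16.4% of all genes were called, 7.86% higher and 8.54% lower. In sham libraries alone 0 were called (0.2% of genes), and leaving out 1 library gave 0 to 8 chains, with 7 without excision replicate 3 and 8 without sham replicate 4. Col28a1 lay near the floor, at 0 to 0.521 CPM over the hippocampus, and was tested in only 23 of these 29 fits. With the TEC share as a covariate Col4a1 stood at -0.02 (adjusted p = 0.92), where 7.6% of genes were called.

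In the frontal cortex 13 chains were higher in batch 2 and 0 lower, where 10.0% of all genes were called, 6.01% higher and 3.99% lower. Of these 4 were fibrillar, 1 was a basement membrane chain and 8 were others. Col6a1 ran from 13.0 to 169.7 CPM in batch 1 (median 68.0) and from 81.7 to 168.9 CPM in batch 2 (median 129.8). Its log2 difference was 0.93 (SE 0.28, adjusted p = 0.037), and batch 2 lacked the low libraries that batch 1 held. Col2a1, known from cartilage and expressed at 0.362 to 2.50 CPM in batch 1 and 1.39 to 2.61 in batch 2, differed by 0.95 (SE 0.17, adjusted p = 0.0047). Col24a1 had medians of 1.60 and 6.57 CPM and a difference of 1.71 (SE 0.48, adjusted p = 0.025), and Col7a1, the chain of anchoring fibrils, 2.57 and 7.45 CPM and a difference of 1.42 (SE 0.39, adjusted p = 0.024). The other 9 were Col5a2, Col9a2, Col9a3, Col10a1, Col15a1, Col16a1, Col20a1, Col23a1 and Col27a1, from 0.38 to 0.86. In sham libraries alone 0 chains passed (0.0% of genes), in a comparison of 5 libraries with 3. Leaving out 1 library gave 6 chains (without burn replicate 8), 7 (burn replicate 2), 8 (burn replicate 4) and up to 21 (excision replicate 2). The TEC share ran from 0.0494% to 0.0801% in batch 1 and from 0.0618% to 0.0851% in batch 2, and with it as a covariate 0 chains passed, where 0.00474% of genes did.

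Single chains were set against marker sums within each region and batch, as log2 values over 13 to 15 libraries, in 20 relations. The p-values were adjusted over all 20, including the hippocampal choroid plexus relations that are set aside below. Col1a2 and the meningeal fibroblast sum were related by Pearson's r in all 5 sets (r = 0.704 and 0.864 in hippocampus batches 1 and 2, 0.787 and 0.871 in the frontal cortex, 0.918 in the piriform cortex). Adjusted permutation p-values ran from 0.00013 to 0.012, and Spearman's rho from 0.514 to 0.934, with 0.514 in frontal cortex batch 1 not past the threshold (adjusted permutation p = 0.09). Without the 2 libraries farthest from the median sum, r was 0.71 and 0.591 in the hippocampus (adjusted permutation p = 0.03 and 0.076), 0.82 in frontal cortex batch 2 (0.006) and 0.865 in the piriform cortex (0.0022). In frontal cortex batch 1 the relation rested on those 2 libraries, with r = 0.173 without them, and in hippocampus batch 2 it no longer passed. The relation of Col4a1 to the endothelial sum passed the threshold in 0 of 5 sets, with r from -0.086 to 0.477, rho from -0.154 to 0.534 and adjusted permutation p from 0.11 to 0.8. Without the 2 farthest libraries it passed in the piriform cortex (r = 0.71, adjusted permutation p = 0.03). Endothelial sums ran from 60.7 to 129 CPM in the hippocampus, 55.0 to 298 in the frontal cortex and 71.4 to 135 in the piriform cortex. Mural cell sums were narrower, at 83.7 to 135, 86.0 to 165 and 84.6 to 117 CPM.

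The relation of Col9a3 to the choroid plexus sum in the cortical sets depended on the measure. Pearson's r was 0.703 and 0.592 in frontal cortex batches 1 and 2 and 0.653 in the piriform cortex (adjusted permutation p = 0.0073, 0.044 and 0.031). Spearman's rho was 0.596, 0.418 and 0.552 (adjusted permutation p = 0.047, 0.21 and 0.087), past the threshold in 1 of the 3. Without the 2 libraries farthest from the median r was 0.513, 0.552 and 0.537, with adjusted permutation p = 0.12 in each, so that none of the 3 passed. Col18a1 gave r = 0.567, 0.561 and 0.034 there (rho = 0.486, 0.467 and 0.042; adjusted permutation p = 0.045, 0.066 and 0.91), and 0.437 in frontal cortex batch 1 without those libraries (adjusted permutation p = 0.18). In the hippocampus the libraries form separate clusters, so relations were computed within them. The adjustment of the cortical values still included the hippocampal relations over all libraries, so cortical values just under 0.05 may not hold without them. Among the 8 high libraries of batch 2, r was 0.972 for Col9a3 and 0.864 for Col18a1 (adjusted p = 0.0006 and 0.016, exact permutation test, 6 relations; rho = 0.952 and 0.833), and without the 2 farthest libraries 0.943 and 0.789. Among the 9 low libraries of batch 1, r was 0.795 for Col9a3 (adjusted p = 0.016, exact permutation test) and 0.475 for Col18a1 (adjusted p = 0.28). Without the 2 farthest libraries these were 0.573 and -0.542. Among the 7 low libraries of batch 2 both were below 0, at -0.504 and -0.117 (adjusted p = 0.28 and 0.81, exact permutation test).

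The TEC share gave another order of the chains, here as a description without a test. Spearman's rho of Col4a1 with that share was 0.768 to 0.916 over the 5 sets. With the lowest and highest set in brackets, the median over sets was 0.879 for Col5a1 (0.533 to 0.934) and 0.871 for Col24a1 (0.687 to 0.89, 3 sets). It was 0.868 for Col4a2 (0.44 to 0.93) and 0.802 for Col6a1 (0.079 to 0.842). For Col1a2 it was 0.021 (-0.556 to 0.169), for Col1a1 -0.061 (-0.538 to 0.477) and for Col3a1 0.08 (-0.014 to 0.136, 4 sets). Col8a1 had -0.099 (-0.305 to 0.429) and Col9a3 -0.007 (-0.196 to 0.368). A rho above 0.5 was held by 20 of 32 and 11 of 34 chains in hippocampus batches 1 and 2. In the frontal cortex 20 of 34 and 6 of 36 held it, and 17 of 31 in the piriform cortex. Over all genes above 1 CPM the shares were 11.9%, 8.27%, 10.5%, 9.49% and 18.6%, in the same order. These values share library, depth and normalisation.

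**Figure D4:**
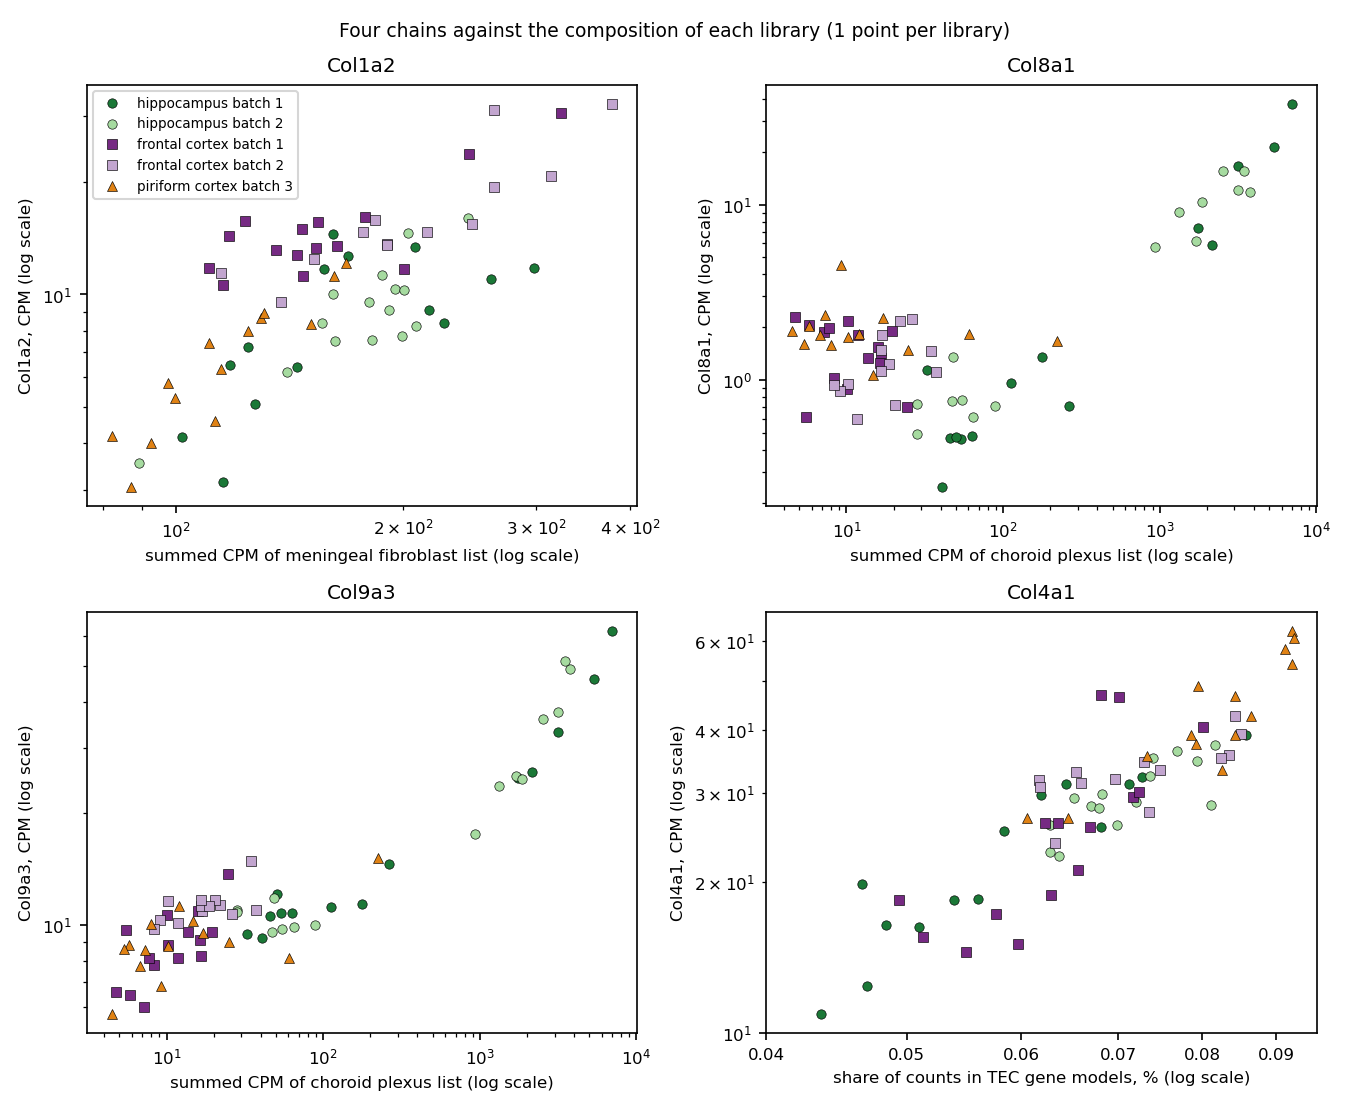
Col1a2 against the meningeal fibroblast sum, Col8a1 and Col9a3 against the choroid plexus sum, and Col4a1 against the share of counts in TEC models, 1 point per library on log axes, with colour and shape for region and batch. The 13 hippocampal libraries at 930.6 CPM or more of choroid plexus markers stand apart in Col8a1 and Col9a3, and Col4a1 is higher where the TEC share is higher (rho 0.768 to 0.916 in the 5 sets).

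Pairs of chains that assemble together were compared in level. The ratio of Col4a1 to Col4a2 per kb stayed between 0.427 and 0.762 in all 71 libraries, and their log2 levels correlated at r = 0.723 to 0.974 over the 5 sets. Their exons overlap by 22 bases, 0.29% of Col4a1, so that shared reads are few. Col1a1 and Col1a2 correlated at r = 0.752 to 0.949. Col6a1 and Col6a2 ranged more widely, at 0.962 and 0.744 in the hippocampus, 0.956 and 0.372 in the frontal cortex and 0.857 in the piriform cortex. Col4a3 and Col4a4 correlated at 0.927 and 0.950 in the hippocampus, where choroid plexus content varied. For frontal cortex r was 0.463 and 0.073 and in the piriform cortex 0.24, at levels under 1 CPM. Exons of Col9a3 overlap those of Tcfl5 over 234 bases (6.07%) and Col4a3 those of C430014B12Rik over 563 bases (5.65%), so their counts may hold reads of the other gene.

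Genes that make, process, bind or degrade collagen were examined alongside, in the main fits only. Their calls were not checked with DESeq2, batches apart, covariates, treatments from titles or libraries left out. For burn against sham in the hippocampus, 2 of 18 chaperones and modifying enzymes fell, where 0.741% of all genes did. P4ha1, a subunit of prolyl 4-hydroxylase, stood at -0.33 (SE 0.06, adjusted p = 0.0091) and Plod3, a lysyl hydroxylase, at -0.28 (SE 0.07, adjusted p = 0.036). None of the propeptide-cleaving and cross-linking genes (11 tested), other basement membrane proteins (15), leucine-rich proteoglycans (8), receptors (10) or degrading enzymes and inhibitors (8) passed. P4ha1 was also lower against excision, at -0.36 (adjusted p = 0.0047) in the hippocampus and -0.31 (adjusted p = 0.024) in the frontal cortex, where 0.209% of genes were called in each. In the frontal cortex after burn, the collagen chaperone Serpinh1 stood at -0.55 (SE 0.13, adjusted p = 0.049) and the collagen-binding Sparc at -0.43 (SE 0.09, adjusted p = 0.040) against sham, where 0.28% of genes were called. No such gene passed for excision against sham or in the piriform cortex. For excision against sham in the frontal cortex, Sparc nevertheless stood at -0.39 (SE 0.09, adjusted p = 0.81), near its value after burn. Between regions, where 61.4% of all genes passed (28.3% higher and 33.1% lower), receptors gave 1 higher and 6 lower of 11 in the hippocampus, with Adgrg6 at -1.81 (SE 0.12). Other basement membrane proteins gave 2 higher and 8 lower of 15, and propeptide-cleaving and cross-linking genes 7 higher and 2 lower of 12. Decorin (Dcn), which binds fibrils, was higher by 2.18 (SE 0.17) and is also a member of the meningeal fibroblast list. In batch 2 P4ha1 was lower, at -0.33 in both regions (adjusted p = 2.5e-05 in the hippocampus and 0.0047 in the frontal cortex), where 16.4% and 10.0% of genes were called. The receptor Adgrg1 (0.54, SE 0.09) and the collagenase Mmp14 (0.55, SE 0.08) were higher there in the frontal cortex only by this test (adjusted p = 0.0047 for each), a difference between regions that was not tested.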

How the data were processed

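RNA sequencing (single-end reads of 100 bp, total RNA) was done on 71 libraries. The authors deposited 1 table of whole-number counts. Genome build GRCm38 and the tools STAR, fastp, FastQC 0.11.3 and DESeq2 1.24.0 are listed in the submitters' processing notes. Counting program, strand setting and annotation release: not given in the sources used here. GENCODE M21 gave symbols to 52135 of 55416 identifiers, and the 3281 others held 0.809% of counts. All 270 pairs of libraries within groups were compared, and 0 were identical (lowest chi-square per degree of freedom 4.365). Counts were fitted per region over all genes with edgeR 4.0.16 (R 4.3.3, TMM, filterByExpr, quasi-likelihood F test), with batch as a term in hippocampus and frontal cortex. The call threshold was an adjusted p (Benjamini-Hochberg) of 0.05. CPM and log2 values (prior count 0.5) were computed from these counts, and log2 differences give the first group minus the second. Relations used 100000 permutations, or exact enumeration within clusters. DESeq2 1.42.0, other filters, batches apart, marker sums and libraries left out were alternatives. The pipeline was tested on simulated data.

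Members and gene lists were chosen with earlier results of these data known. Chains named by rule were the 3 highest per class and region, those called in a comparison (up to 10 by smallest p), and the smallest p-value where none was called. Others that are named were chosen after their values were seen. Counting error was not set against the spread between libraries. It is largest for chains with few counts, above all in the 4 hippocampal libraries under 10 M counts.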

Additional observations from a re-analysis of the deposited data

Results flagged for a closer look

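A library was flagged where its distance from the nearest other, relative to the range of its group, passed Dixon's 95% limit. About 5% of sets would pass by chance if values were normally distributed. This rate need not hold here, since CPM were not log-transformed and the hippocampus and frontal cortex groups join batches 1 and 2. Across 270 sets of libraries (30 named chains in 9 groups), 23 held a flagged library. They are listed as CPM, with the nearest other library in brackets. In the hippocampus, sham replicate 4 was the highest for Col11a2 at 53.9 (36.4) and for Col18a1 at 8.92 (6.32), and it lies in batch 1, where it takes part in the burn comparison. Sham replicate 1, at 7.34 M counts (M, mega), was the highest for Col17a1 at 3.93 (1.30) and Col4a3 at 2.49 (0.827). Burn replicate 2, which holds the most choroid plexus signal, was the highest for Col8a1 at 37.5 (15.6), Col8a2 at 39.2 (20.2) and Col17a1 at 4.48 (2.15). Col6a4 was highest in burn replicate 7 at 4.52 (2.28) and in excision replicate 7 at 8.21 (4.12), and Col6a2 in excision replicate 3 at 18.5 (13.3).

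In the frontal cortex, sham replicate 4 was the highest for Col1a1 at 20.7 (10.5) and Col1a2 at 30.5 (15.7), and sham replicate 6 for Col15a1 at 7.29 (4.23) and Col22a1 at 3.11 (2.18). Burn replicate 8, whose title names sham, was the highest for Col24a1 at 16.7 (6.57) and Col28a1 at 2.10 (0.927). Burn replicate 5 was the highest for Col4a3 at 0.481 (0.299), excision replicate 2 for Col11a2 at 34.3 (26.0) and excision replicate 10 for Col9a3 at 14.8 (11.3). In the piriform cortex, excision replicate 3 was the highest for Col5a1 at 52.6 (24.6) and Col6a2 at 31.9 (21.1), and excision replicate 2 for Col8a1 at 4.52 (1.82). Burn replicate 5 was the lowest for Col6a2 at 20.7 (30.3).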

How the results depend on the processing

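Settings other than single libraries left out were compared with the main one. Of the counts called over chains or relations, 120 were 0 in both or within 1.5 times the main count. Another 7 rose from 0, 3 fell to 0 and 6 changed by more. Direction was not part of this rule, so a fit in which chains turned can count as unchanged. For single chains 253 kept their direction and side of the threshold, 7 newly passed it, 23 no longer did and 9 turned. Counts of called chains that moved were as follows. With DESeq2, hippocampus burn against sham gave 2, piriform excision against sham 1, piriform burn against excision 1 and hippocampus batches 5 (2 by edgeR). In batch 1 alone, hippocampus burn against sham gave 10, hippocampus burn against excision 1, frontal cortex burn against sham 2 and frontal cortex burn against excision 7. In sham libraries alone, the batches gave 0 in both regions and the regions 13 (25 over all libraries). With the TEC share, hippocampus batches gave 1 and frontal cortex batches 0. Without libraries under 10 M (mega) counts, hippocampus batches gave 1. Of 16 relations 9 passed by Pearson's r, 5 by Spearman's rho and 4 without the 2 farthest libraries. Their p-values were adjusted over all 20 relations, including the hippocampal choroid plexus relations set aside, and not over the 16 alone. Calls just under 0.05 may therefore not hold over the 16. Directions turned for Col22a1 in hippocampus excision against sham (0.05 in batch 2 alone), Col4a1 between hippocampus batches (-0.02 with the TEC share), Col8a1 (-2.21), Col8a2 (-1.39), Col4a3 (-1.0), Col4a4 (-0.61) and Col9a3 (-0.55) between regions with the choroid plexus sum, and, without the 2 farthest libraries, Col4a1 with the endothelial sum in hippocampus batch 2 (r = 0.316) and Col18a1 with the choroid plexus sum in the piriform cortex (r = -0.005). The cause of these changes was not tested. Covariates of TEC share and choroid plexus sum between regions, Spearman's rho and leaving out libraries with disagreeing labels were chosen after seeing the data. Leaving out 1 library gave 0 to 6 chains for hippocampus burn against sham, 0 to 2 for burn against excision (2 without burn replicate 8), 0 to 8 for hippocampus batches and 6 to 21 for frontal cortex batches. With title numbers as a replicate block, 0 chains were called in the 9 treatment comparisons, and with library numbers as a block the regions gave 25. Same-numbered libraries shared only a number: their deviations correlated at -0.47 to 0.46 in 28 hippocampal pairs, -0.48 to 0.61 in 26 frontal cortex pairs and -0.23 to 0.49 in 12 piriform pairs, and 6 of 29, 9 of 28 and 3 of 14 libraries correlated best with their own number. Depth limits the chains under 1 CPM, such as Col4a3, Col4a4, Col28a1 and Col10a1.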
